A study of Rattus norvegicus with 6 samples.

Results

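The microRNA (miRNA) content of normal rat heart was described from 3 of the 6 small RNA libraries of a series on early ischemia-reperfusion. The 3 libraries came from whole heart tissue of wild-type control rats (Rattus norvegicus), 1 heart per library. The other 3 libraries, from ischemia-reperfusion hearts, were not used here. Hearts are only numbered in the labels, without strain, sex or age, so the spread given below is the spread between these hearts. Members were all 699 miRNAs with a miRBase name in the deposited count table, with 1 row kept per mature miRNA. Of these, 482 had a count in at least 1 normal heart, 393 had counts in all 3, and 217 had none. For each miRNA the table gives 3 kinds of count: tags identical to the mature sequence listed in the table (the listed sequence), tags of the most abundant sequence, and tags of all isoforms together. All-isoform counts summed to 6873575, 8168827 and 8330892 in hearts 1, 2 and 3. Levels are given as CPM, the counts of a miRNA scaled to a total of 1000000 miRNA counts per heart.

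MiRNAs are cut from hairpin transcripts by Drosha and then Dicer, which leaves a duplex of the 5p and the 3p arm. Usually 1 arm is loaded into an Argonaute protein and kept, while the other is degraded. The loaded strand finds its targets mainly through the seed, bases 2 to 8 from its 5′ end. Shifts in the cut sites, trimming and enzymatic addition of bases at the 3′ end give variants of a miRNA, called isomiRs. A shifted 5′ end moves the seed, whereas a changed 3′ end leaves it as it was. In heart, miR-1 and miR-133 are known as muscle miRNAs, miR-208 and miR-499 as products of myosin genes, miR-126 as an endothelial miRNA and the miR-143 and miR-145 pair as smooth muscle miRNAs.

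The sequences below show 6 of the 12 miRNAs whose most abundant sequence carries another seed than the listed one, with miR-10a-5p beside miR-10b-5p for comparison. They are deposited rat sequences, written 5′ to 3′ as RNA, with the seed (bases 2 to 8) in capitals.
miR-10b-5p, listed: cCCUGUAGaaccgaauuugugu
miR-10b-5p, most abundant: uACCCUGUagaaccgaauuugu
miR-10a-5p, listed: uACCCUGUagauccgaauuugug
miR-133a-3p, listed: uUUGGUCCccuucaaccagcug
miR-133a-3p, most abundant: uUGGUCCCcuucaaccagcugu
miR-29a-3p, listed: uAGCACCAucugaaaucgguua
miR-29a-3p, most abundant: cUAGCACCaucugaaaucgguu
miR-142-5p, listed: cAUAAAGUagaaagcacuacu
miR-142-5p, most abundant: cCCAUAAAguagaaagcacu
miR-142-3p, listed: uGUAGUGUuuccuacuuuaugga
miR-142-3p, most abundant: gUAGUGUUuccuacuuuaugga
miR-145-3p, listed: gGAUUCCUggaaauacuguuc
miR-145-3p, most abundant: aUUCCUGGaaauacuguucuu
In the GRCr8 build of RefSeq the listed miR-10b-5p lies at chr3:80035886-80035907 (plus strand), miR-133a-3p at chr18:2157886-2157907 (minus strand) and miR-29a-3p at chr4:60617968-60617989 (minus strand).

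The next set shows changes at the 3′ end among abundant miRNAs. Capitals mark bases of the most abundant sequence that are not in the listed one.
miR-148a-3p, listed: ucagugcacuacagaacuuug
miR-148a-3p, most abundant: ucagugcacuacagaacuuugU
miR-143-3p, listed: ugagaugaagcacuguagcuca
miR-143-3p, most abundant: ugagaugaagcacuguagcucU
miR-30a-5p, listed: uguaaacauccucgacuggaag
miR-30a-5p, most abundant: uguaaacauccucgacuggaagCU
miR-27a-3p, listed: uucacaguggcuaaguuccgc
miR-27a-3p, most abundant: uucacaguggcuaaguuccgA
miR-99a-5p, listed: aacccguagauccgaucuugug
miR-99a-5p, most abundant: aacccguagauccgaucuugu
miR-1b, most abundant: uggaauguaaagaaguaugu
The listed sequences of the 2 heart miR-1 forms share their seed and differ at 1 base, A17G from miR-1b to miR-1-3p counted from the 5′ end, shown here in capitals.
miR-1b, listed: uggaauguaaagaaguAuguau
miR-1-3p, listed: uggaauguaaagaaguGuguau
In RefSeq (GRCr8) miR-1b lies at chr3:187864736-187864757 on the plus strand, outside any annotated protein-coding gene. MiR-1-3p lies at chr18:2160339-2160360 on the minus strand, within the span of Mib1, a ubiquitin ligase gene. MiR-148a-3p lies at chr4:81664447-81664467 (minus strand) and miR-143-3p at chr18:57371373-57371394 (minus strand).

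A few miRNAs held most of the counts. The 10 most abundant miRNAs held 77.2%, 76.1% and 76.0% of the counts in hearts 1, 2 and 3 (mean 76.4% ± 0.652, SD, n = 3). Only 4 miRNAs sufficed for 50% of the counts in each heart, 21, 22 and 22 for 90%, and 87, 90 and 89 for 99%. By mean level, 345 miRNAs reached 1 CPM, 126 reached 100 CPM, 19 reached 10000 CPM and 2 reached 100000 CPM. Ranks were alike between hearts: 9 miRNAs stood among the 10 highest in every heart. Across the 331 miRNAs with a mean of at least 10 counts, Spearman's rho was 0.982 for hearts 1 and 2, 0.972 for hearts 1 and 3, and 0.983 for hearts 2 and 3. These coefficients describe genes within shared libraries, and miRNAs are not independent replicates.

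MiR-1b led in every heart, with 229977, 204007 and 163024 CPM. The smooth muscle miRNA miR-143-3p had 115635, 116765 and 131134 CPM and varied little. MiR-99a-5p, which shares its seed with miR-100, had 54766, 96462 and 107092 CPM. The endothelial miR-126a-3p had 53915, 87505 and 105510 CPM. MiR-148a-3p had 51869, 80316 and 76587 CPM. These last 3 were each lowest in heart 1. MiR-1-3p went the other way, with 145594 CPM in heart 1 against 32324 and 26629 CPM in hearts 2 and 3. Its mean of 68182 ± 67100 CPM (SD, n = 3) is therefore set by heart 1, and without that heart the mean is 29477 CPM. MiR-26a-5p, encoded inside the phosphatase gene Ctdspl, had 37696, 45471 and 45299 CPM. The related miR-30d-5p and miR-30a-5p averaged 38984 ± 4515 and 36994 ± 3862 CPM (SD, n = 3). MiR-378a-3p, the tenth, averaged 19214 ± 3368 CPM. The plot of the 20 most abundant miRNAs shows this order and the place of each heart.

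**Figure D1:**
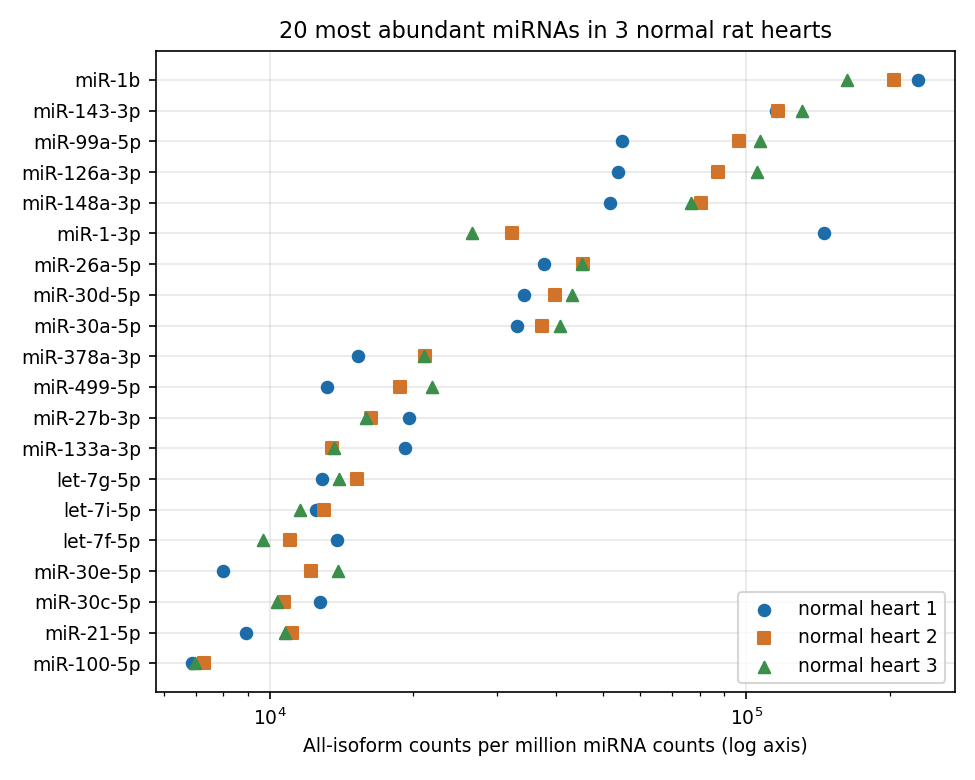
Level of the 20 most abundant miRNAs in each normal heart, as all-isoform CPM on a log axis; each symbol is 1 heart. MiR-1-3p has the widest spread, with heart 1 at 145594 CPM against 32324 and 26629 CPM in hearts 2 and 3.

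Heart 1 stood apart from the others. Among 206 miRNAs with a mean of at least 100 counts, 15 were at least 1.5-fold above and 34 at least 1.5-fold below the mean of the other hearts in heart 1. The same counts were 7 and 3 for heart 2, and 18 and 9 for heart 3. CPM add up to a fixed total, so a larger share of 1 miRNA lowers the CPM of all others. The miRNAs with the miR-1 seed held 37.6% of the counts in heart 1, against 23.7% and 19.0% in hearts 2 and 3. How far that share accounts for the miRNAs below the other hearts in heart 1 was not tested. Among markers of blood and liver, the red cell miRNA miR-451-5p and the liver miRNA miR-122-5p were also highest in heart 1. MiR-451-5p had 147, 47.7 and 60.6 CPM, and miR-122-5p had 76.2, 37.0 and 27.6 CPM in hearts 1, 2 and 3. Over the whole marker lists heart 1 was instead the lowest. The 4 red cell miRNAs held 0.241%, 0.243% and 0.267%, and the 8 liver and epithelial miRNAs 0.0635%, 0.0734% and 0.104%. MiR-192-5p, the most abundant of the liver and epithelial list, had 503, 641 and 952 CPM. Whether blood or tissue sampling has a part in the values of heart 1 was not tested.

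Most miRNAs at 100 CPM or more varied little between hearts. Among these 126 miRNAs, the median coefficient of variation (CV, SD over mean, n = 3) was 13.3%, with 39 miRNAs under 10% and 15 over 30%. It was not lowest at the highest levels. The median CV was 13.4% for 73 miRNAs from 100 to 1000 CPM, 11.1% for 34 from 1000 to 10000 CPM and 17.0% for 19 at 10000 CPM or more. After miR-1-3p (98.4%), the most variable was miR-224-5p (60.7%), with 228, 111 and 69.1 CPM. The hypoxia miRNA miR-210-3p (37.3%) had 307, 463 and 663 CPM, and miR-208a-3p (36.5%), encoded in a cardiac myosin gene, had 361, 619 and 787 CPM. In both, heart 1 was lowest and heart 3 highest. MiR-24-2-5p, miR-181a-5p, miR-455-5p and miR-192-5p followed, with CVs of 34.3%, 33.3%, 33.1% and 32.9%. The steadiest was miR-361-3p, with 529, 523 and 527 CPM (CV 0.646%). Then came miR-125b-2-3p (1.22%), miR-23b-3p (2.56%), miR-100-5p (3.16%) and miR-185-5p (3.16%).

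Heart muscle markers were abundant. The 9 heart muscle miRNAs of the list all had counts and held 41.1%, 27.1% and 22.8% of the total in hearts 1, 2 and 3. Besides miR-1b and miR-1-3p, the list was led by miR-499-5p, the product of the myosin gene Myh7b, with 13174, 18790 and 21954 CPM. The muscle miRNA miR-133a-3p had 19194, 13506 and 13634 CPM. The 2 arms of endothelial miR-126a held 5.52%, 8.91% and 10.7%. The heart muscle share was set mostly by miR-1b and miR-1-3p. The other 7 members held 3.52%, 3.49% and 3.83% of all counts, with miR-1b and miR-1-3p kept in the total. Their share of the counts without those 2 miRNAs was not computed. Members did not move together, since miR-499-5p and miR-208a-3p were lowest in heart 1, whereas miR-133a-3p was highest there. In bulk tissue, fewer cells of a type and less RNA per cell cannot be told apart, and shares of a library depend on each other.

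The 7 smooth muscle and fibroblast miRNAs held 12.2%, 12.3% and 13.7%, nearly all of it miR-143-3p. MiR-145-5p added 2395, 2606 and 2396 CPM, and miR-199a-3p, known from fibroblasts, 2044, 1812 and 1239 CPM. Markers of other cell types were low. The 5 leukocyte miRNAs summed to 0.0611% ± 0.00583 (SD, n = 3), led by miR-150-5p at 397 ± 53.1 CPM, with miR-142-5p at 118 ± 21.3 CPM. Red cell miRNAs were mostly miR-486 at 2416 ± 172 CPM, which muscle also makes, while miR-144-3p was near 1 CPM in every heart (0.873, 0.367 and 1.08). Among liver and epithelial miRNAs miR-192-5p led at 699 ± 230 CPM, and miR-194-5p had 36.3 ± 5.86 CPM. Neural and endocrine miRNAs summed to 0.141% ± 0.0137, with miR-128-3p at 816 ± 87.7 CPM, miR-7a-5p at 523 ± 78.9 CPM and miR-9a-5p at 69.5 ± 1.87 CPM, while the neuronal miR-124-3p was listed at 0 in all 3 hearts. The skeletal muscle miRNA miR-206-3p had 654, 528 and 418 CPM, a value that is taken up again with its isoforms.

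Grouping by shared seed made the concentration sharper. The 482 miRNAs with counts carried 392 distinct seeds, and the 10 largest seed families held 87.3% ± 0.803 of the counts (SD, n = 3). The miR-1 and miR-206 family, seed GGAAUGU, held 37.6%, 23.7% and 19.0% in hearts 1, 2 and 3. MiR-143-3p alone held 11.6%, 11.7% and 13.1%. The 6-member miR-30 family held 8.90%, 10.1% and 10.9%, with miR-30e-5p next after miR-30d-5p and miR-30a-5p at 11352 ± 3050 CPM. The miR-99 and miR-100 family held 6.36%, 10.6% and 11.6%, to which miR-100-5p gave 7039 ± 222 CPM and miR-99b-5p 1895 ± 106 CPM.

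Of the next families, miR-126a-3p, miR-148 with miR-152, miR-26 and miR-378a-3p were lowest in heart 1. MiR-126a-3p held 5.39%, 8.75% and 10.6%, and miR-378a-3p held 1.53%, 2.12% and 2.11%. The miR-148 and miR-152 family held 5.45%, 8.32% and 7.90%, nearly all from miR-148a-3p, with miR-152-3p at 1597 ± 175 CPM and miR-148b-3p at 1046 ± 122 CPM. The miR-26 family held 4.20%, 4.93% and 4.89%, including miR-26b-5p at 3911 ± 331 CPM. The let-7 family, whose members restrain growth and cell cycle genes, held 4.78%, 4.78% and 4.31% with its 9 members. Its leading members were let-7g-5p at 14014 ± 1180 CPM, let-7i-5p at 12367 ± 707 CPM and let-7f-5p at 11522 ± 2113 CPM. The miR-27 family held 2.34%, 2.19% and 2.22%, from miR-27b-3p at 17275 ± 2015 CPM and miR-27a-3p at 5205 ± 1270 CPM. Several such relatives have listed sequences only 1 base apart, in 21 pairs with a member at 100 CPM or more. Among them are miR-1b and miR-1-3p (A17G), miR-30d-5p and miR-30a-5p (C12U), miR-99a-5p and miR-100-5p (U16A), and miR-27b-3p and miR-27a-3p (U19C). How the table assigned tags between such relatives is not given, so their separate levels are uncertain.

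Most hairpins strongly favoured 1 arm. The 2 arms of a hairpin come from the same transcript and library, so they were compared within each heart, for pairs that share a name stem and have a mean of at least 10 counts in sum. Of 188 pairs tested, 87 (46.3%) were higher on the 5p arm and 80 (42.6%) on the 3p arm at an adjusted p of 0.05 (edgeR quasi-likelihood F test with heart as a block, Benjamini-Hochberg), and 21 passed in neither direction. Among the 90 pairs at 100 CPM or more, 50 were higher on 5p, 39 on 3p and 1 on neither. In 49 of the tested pairs an arm was listed at 0 in all hearts. In the 118 pairs with both arms counted in every heart, the higher arm exceeded the lower by a median of 13.3-fold. The gap was at least 2-fold in 99 of these pairs, at least 10-fold in 63 and at least 100-fold in 29.

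The pairs furthest towards 5p had almost no 3p tags. MiR-26a had 259107, 371442 and 377382 counts on 5p, against 0, 2 and 0 on 3p (adjusted p = 7.83e-159, edgeR). MiR-149, miR-186, miR-185 and miR-192 also had no 3p count in any heart, with 7659, 10652 and 15115 counts on the 5p arm of miR-149. MiR-99a had 376439, 787981 and 892169 counts on 5p, against 37, 79 and 69 on 3p. Its log2 ratio of 5p over 3p was 13.42 ± 0.21 (SD over hearts, n = 3; adjusted p = 1.61e-161, edgeR). Let-7g had a log2 ratio of 13.48 ± 0.78 (adjusted p = 4.72e-128, edgeR), with 9, 6 and 16 counts on 3p. MiR-21, a miRNA known from injured heart and fibroblasts, had 61342, 90867 and 89578 counts on 5p, against 0, 18 and 18 on 3p (adjusted p = 1.78e-35, edgeR).

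Towards 3p stood several muscle miRNAs. MiR-1 had no count on 5p in any heart, against 1000749, 264053 and 221845 on 3p (adjusted p = 1.19e-167, edgeR). MiR-133b likewise had none on 5p, against 11561, 8459 and 9226 on 3p. The 5p arms of miR-101b, miR-328a, miR-206, miR-320 and miR-381 were also at 0 in all 3 hearts, and miR-101a had 0, 2 and 4 counts on 5p, against 20610, 25355 and 34395 on 3p. Each of these 8 passed the test, and the 3p arm was higher in 3 of 3 hearts. For miR-206 and miR-133b the call is uncertain as a choice of arm. The leading sequence of miR-206-3p is as near to miR-1b as to its own listed sequence. That of miR-133b-3p matches the listed miR-133a-3p where they overlap, with a further C past its end. Which hairpin these 3p tags come from was not tested. A few were less one-sided: miR-133a had a log2 ratio of -4.87 ± 0.32, miR-126a of -5.80 ± 0.39 and miR-143 of -8.70 ± 0.15 (SD, n = 3).

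Pairs close to even were few at these levels. Only miR-339 did not pass the test (log2 5p over 3p -0.27, SE 0.24; adjusted p = 0.270, edgeR). It had 392, 467 and 395 counts on 5p and 295, 580 and 736 on 3p, so the higher arm was 5p in heart 1 and 3p in hearts 2 and 3. Without heart 1 its 3p arm passed as higher (log2 ratio -0.61; adjusted p = 0.0142, edgeR), and without heart 3 the ratio was 0.0427. MiR-195 had 1646, 2626 and 2173 counts on 5p, against 917, 1420 and 1270 on 3p (log2 ratio 0.84 ± 0.06; adjusted p = 0.000214, edgeR). The leukocyte miRNA miR-142 was at 0.85 ± 0.20, miR-423 at -0.88 ± 0.22 and miR-322 at -1.04 ± 0.04 (SD, n = 3), each with the same higher arm in 3 of 3 hearts. MiR-195 and miR-142 no longer passed when scaling factors were fitted between arms (adjusted p = 0.265 and 0.277, edgeR). For miR-339 and miR-322 the higher arm depended on the kind of count: with tags of the listed sequence only, their log2 ratios were 4.31 and 0.75, in favour of 5p.

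The choice of arm was steady over hearts. In 90 pairs with a mean of at least 10 counts on each arm, the log2 ratio had a median SD of 0.37 between hearts, and the largest was 1.04, for miR-26b. In 10 of the 118 pairs counted on both arms in every heart the higher arm differed between hearts. None of the 10 had passed the test, which a pair whose direction changes between hearts can hardly pass. The scatter of log2 ratios against level shows these near-even pairs at low levels.

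**Figure D2:**
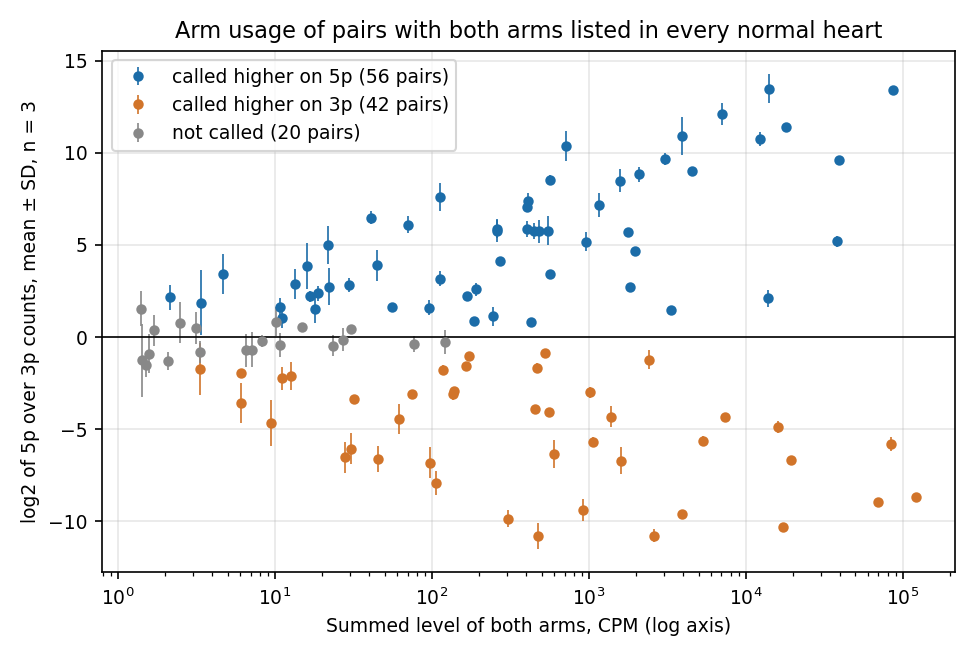
The log2 ratio of 5p over 3p counts (mean ± SD over 3 hearts) against the summed level of both arms on a log axis, for the 118 pairs counted on both arms in every heart; points above 0 favour 5p. The pairs that did not pass the test (grey, 20) lie near 0 and mostly at low levels, and 29 of the 118 differ at least 100-fold between arms.

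The first base of higher and lower arms is given as a description, with no test. Of the 167 pairs that passed, the higher arm's listed sequence began with U in 51.5% and the lower arm's in 19.2%. For G the shares were 3.59% of higher arms and 18.6% of lower arms. A 5′ U is known to be favoured by the binding pocket of Argonaute. Over all miRNAs, listed sequences beginning with U held 87.6%, 82.4% and 81.3% of the counts in hearts 1, 2 and 3, and those beginning with G held 0.502%, 0.633% and 0.625%. By arm, 5p miRNAs held 30.2%, 37.8% and 39.2% of all counts. Without miR-1b and miR-1-3p, both from 3p arms, the 5p share was 48.4%, 49.5% and 48.4%, so the difference of heart 1 rests on those 2 miRNAs.

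Tags identical to the listed sequence were a minority. They made up 26.6%, 20.5% and 18.3% of the counts in hearts 1, 2 and 3 (21.8% ± 4.29, SD, n = 3). Tags of the most abundant sequence of each miRNA made up 38.2%, 39.8% and 40.9% (39.6% ± 1.34). Without miR-1b and miR-1-3p the share of listed sequences was 17.6%, 17.4% and 16.5%, and the order of the hearts remained with a smaller gap. Per miRNA, the median share over the 206 miRNAs with a mean of at least 100 counts was 18.2%, 18.4% and 17.1% (17.9% ± 0.742). In every heart the listed sequence was under 5% for 43 of these miRNAs and over 50% for 17. The 95% Wilson interval of such a share was at most 12.0 percentage points to either side, and at most 4.07 points for miRNAs at 100 CPM or more. These intervals cover counting error only, since reads copied by PCR are not independent molecules.

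The test per miRNA set tags of the listed sequence against all other isoforms. Of 331 miRNAs with a mean of at least 10 counts, the listed sequence outnumbered the other isoforms in 22 (6.65%), the other isoforms outnumbered it in 260 (78.5%), and 49 did not pass (edgeR quasi-likelihood F test with heart as a block, Benjamini-Hochberg). The 22 fell to 12 without heart 2 and to 13 without the heart block. When scaling factors were fitted between the isoform classes, which removes the average difference between them, the counts became 102 and 161. By arm, the listed sequence was ahead in 14 and the other isoforms in 111 of 154 5p miRNAs, and in 8 and 149 of 177 3p miRNAs.

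Abundant miRNAs differed widely in isoform make-up. MiR-26a-5p was read as the listed sequence in 51.3%, 49.2% and 51.7% of its tags, and miR-1-3p in 51.5%, 43.2% and 42.3%. Let-7g-5p, let-7i-5p and let-7f-5p lay between 45.4% and 51.9% in each heart. MiR-499-5p had 36.9%, 32.3% and 32.7%, miR-27b-3p 30.4%, 33.6% and 32.9%, and miR-126a-3p 20.2%, 27.4% and 23.3%. In all of these the listed sequence was also the most abundant. MiR-378a-3p was spread over many forms, with 17.6%, 18.5% and 18.3% in its listed and most abundant sequence.

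In other abundant miRNAs another sequence led. MiR-148a-3p was almost never read as listed: 0.0477%, 0.0276% and 0.0274% of its tags, while the form with 1 more U at the 3′ end made up 71.4%, 71.4% and 73.9%. MiR-99a-5p had 4.21%, 3.92% and 2.96% as listed, and 52.7%, 50.4% and 54.1% in the form that lacks the last G. MiR-143-3p had 7.0%, 5.998% and 5.95% as listed, and 30.8%, 29.4% and 28.05% with U in place of its last A. MiR-30a-5p had 7.40%, 8.35% and 7.50% as listed, and 27.7%, 27.2% and 27.96% in the form that ends 2 bases later. MiR-30d-5p and miR-30e-5p also led with a longer 3′ end, with 3.22% to 4.49% as listed in every heart.

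MiR-1b was split between 2 forms that ran in opposite order over the hearts. Its listed sequence held 35.4%, 28.3% and 23.4%, and the form 2 bases shorter at the 3′ end held 30.3%, 38.7% and 45.6% in hearts 1, 2 and 3. The listed form thus led in heart 1 and the shorter form in hearts 2 and 3. This was 1 of 12 miRNAs among the 206 in which the listed sequence outnumbered the table's most abundant sequence in at least 1 heart. The table gives a single most abundant sequence per miRNA for all its libraries, not 1 per heart.

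**Figure D3:**
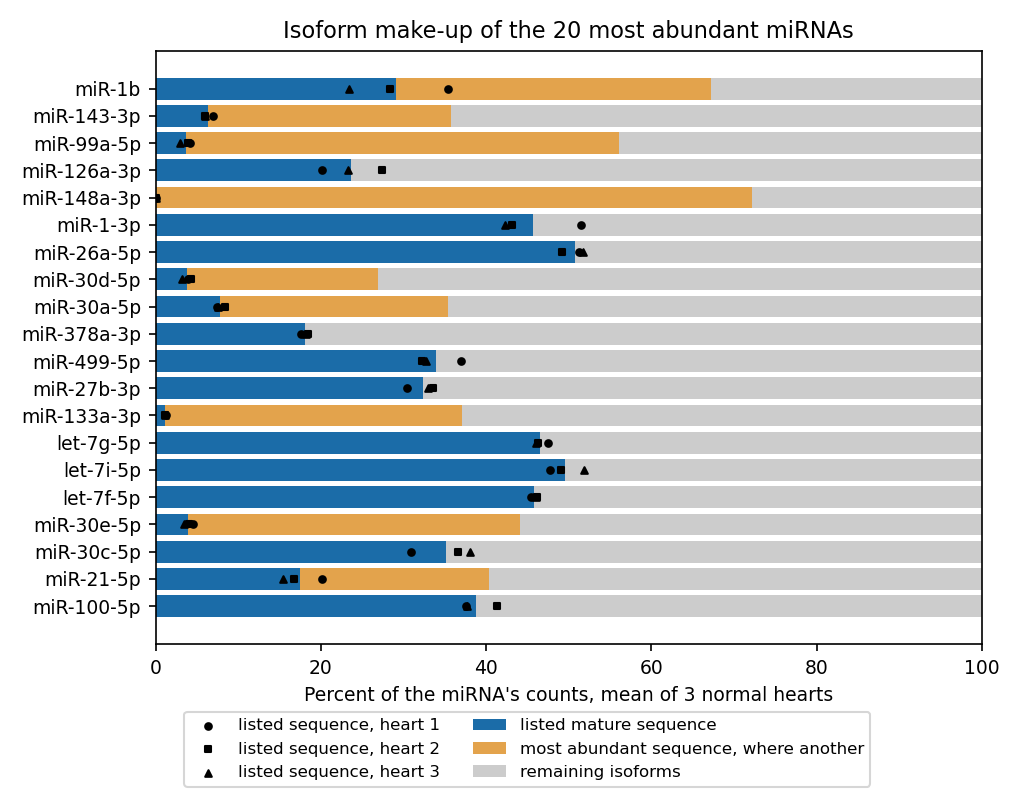
Isoform make-up of the 20 most abundant miRNAs as the percent of each miRNA's counts, mean of 3 hearts: listed sequence (blue), most abundant sequence where it is another (orange) and remaining isoforms (grey); black symbols give the listed share of each heart. MiR-148a-3p has almost no listed sequence (0.0477%, 0.0276% and 0.0274%), whereas miR-26a-5p has 49.2% to 51.7%.

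Among miRNAs at 100 CPM or more that passed the test, the lowest listed shares were those of miR-10b-5p, miR-148a-5p and miR-381-3p, at 0 in all 3 hearts. Their most abundant sequences made up 49.9% to 53.4%, 66.1% to 66.6% and 68.0% to 72.2%. MiR-1843b-5p (0, 0 and 0.186%) and miR-92a-3p (0.205%, 0.184% and 0.160%) were also rarely read as listed. MiR-92a-3p, a member of the miR-17-92 cluster, had 46.7%, 37.7% and 40.8% in a form longer at the 3′ end.

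The highest listed shares in this class belonged to miR-27a-5p, with 67.5%, 66.7% and 65.0% (adjusted p = 3.91e-09, edgeR), the lower arm of its hairpin. MiR-22-3p, a miRNA abundant in muscle, had 58.8%, 58.7% and 60.7% (adjusted p = 1.53e-05, edgeR) and miR-340-5p had 57.9%, 58.9% and 58.9%. Let-7c-5p had 54.8%, 58.7% and 61.4% (adjusted p = 8.04e-05, edgeR; 0.0606 without heart 2). Let-7d-5p, miR-532-5p, miR-218a-5p and let-7a-5p had means of 56.0% ± 4.74, 55.2% ± 3.05, 55.0% ± 1.84 and 54.3% ± 2.88 (SD, n = 3). All 8 were above 50% in 3 of 3 hearts. The calls of these last 4 were lost without the heart block and on leaving out hearts 1 or 3 (miR-532-5p) or hearts 2 or 3 (let-7d-5p, miR-218a-5p and let-7a-5p), with adjusted p up to 0.318 (edgeR).

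In each heart 5p miRNAs had a higher median listed share than 3p miRNAs. The median listed share was 23.7%, 24.7% and 23.4% for 111 5p miRNAs, against 13.3%, 13.1% and 13.9% for 95 3p miRNAs in hearts 1, 2 and 3. The difference of 10.5 ± 1.03 percentage points (SD, n = 3) had the same direction in 3 of 3 hearts, and the groups of heart medians did not overlap. An exact sign-flip permutation test, two-sided, gave p = 0.25, the smallest that 3 hearts allow. With a minimum of 1000 counts the difference was 5.75 points. The spread within each arm was wide: the middle range of 5p miRNAs ran from 8.04% to 45.5% in heart 1 (quartiles), and that of 3p miRNAs from 5.27% to 25.3%. Between the higher and the lower arm of a pair the medians were closer. In 39 called pairs with at least 100 counts on each arm, the higher arm's median listed share was 17.7%, 20.7% and 23.3%, and the lower arm's 18.7%, 20.2% and 20.3%.

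**Figure D4:**
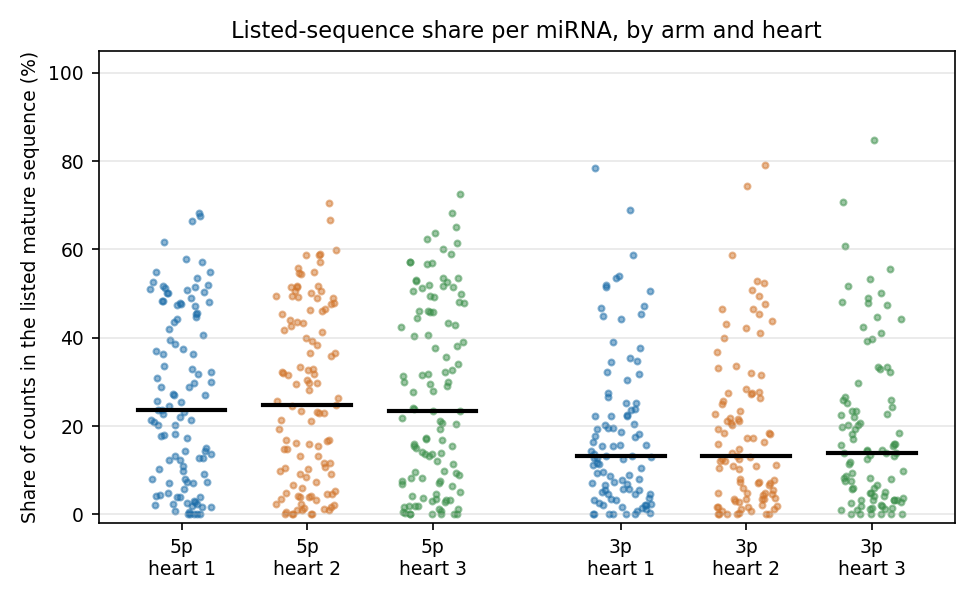
Share of counts in the listed sequence for each miRNA with a mean of at least 100 counts, for 111 5p miRNAs (left) and 95 3p miRNAs (right) in hearts 1 to 3; points are miRNAs and black bars are medians. The medians are 23.7%, 24.7% and 23.4% on 5p and 13.3%, 13.1% and 13.9% on 3p, with wide scatter on both.

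The most abundant sequence was another than the listed one for 120 of the 206 miRNAs (58.3%). It matched the listed one for 57 of 111 5p miRNAs and 29 of 95 3p miRNAs. Most differences lay at the 3′ end: it was longer in 52 miRNAs and shorter in 33, with the same start. In 16 the length was kept and the last bases differed, as in miR-143-3p and miR-27a-3p, and 15 of these 16 were 3p miRNAs. In 5 the end had moved and its last bases differed. The start was shifted in 11, and 3 had a mismatch inside. The bar chart of these classes shows longer ends as more frequent among 3p miRNAs (29, against 23 on 5p) and shorter ends among 5p miRNAs (21, against 12 on 3p).

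**Figure D5:**
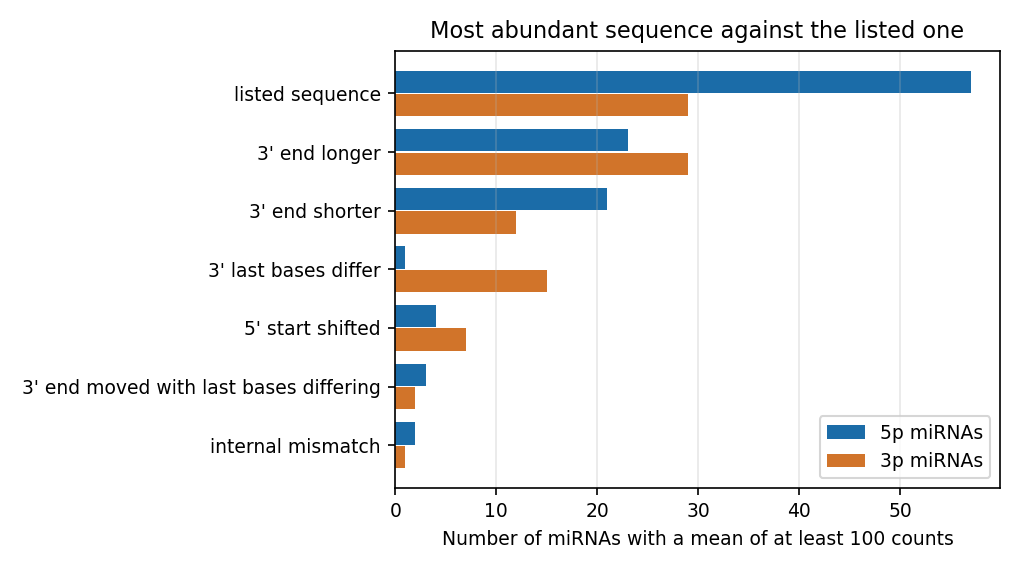
Number of miRNAs with a mean of at least 100 counts, by how their most abundant sequence relates to the listed one, for 5p miRNAs (blue) and 3p miRNAs (orange). The listed sequence itself led in 57 5p and 29 3p miRNAs, and a changed last base at the same length lies mostly on 3p, with 15 3p miRNAs and 1 5p miRNA.

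Changed ends were partly encoded in the hairpin, and single bases that were not were mostly U. For 164 of the 206 miRNAs a RefSeq hairpin of GRCr8 could be matched by name and contained the listed sequence. In 67 of these the most abundant sequence was the listed one, which follows its hairpin because the matching required it. Of the other 97, 60 followed the hairpin to the last base, 31 ended in 1 base not in it, and 6 left it earlier. These 6 include 2 with a mismatch inside (miR-206-3p and miR-24-1-5p) and miR-133b-3p. The leading sequence of miR-133b-3p leaves its hairpin with GC, of which the G matches the listed miR-133a-3p and the C lies past its end. The single added base was U in 28, A in 2 and C in 1. A lone added U was found in 22 of 73 3p miRNAs and 6 of 91 5p miRNAs. As background, the 3′ end of a 3p miRNA is the open end of its precursor hairpin, on which terminal uridylyl transferases are known to act. Of the abundant ones, miR-143-3p ended in such a U, and miR-23b-3p did in 43.3%, 46.3% and 49.1% of its tags, against 5.56%, 4.92% and 4.72% as listed. The last U of the leading miR-148a-3p form was not among these added bases. MiR-27a-3p ended in an added A in 38.8%, 39.8% and 44.5% of its tags, against 4.56%, 3.58% and 3.61% as listed. Let-7a-1-3p and let-7c-2-3p had the same most abundant sequence with an added U and nearly equal counts, so their separate levels are uncertain. Whether the table counts a tag under several relatives, miR-378b and miR-133b-3p included, is not given.

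In 12 of the 206 miRNAs the most abundant sequence had another seed than the listed one. They held 2.84%, 2.31% and 2.35% of the counts. MiR-133a-3p was the most abundant of them: 1.27%, 1.13% and 1.09% of its tags were as listed, and 35.7%, 34.8% and 37.5% began 1 base later. MiR-133b-3p had 4.68%, 3.59% and 3.24% as listed and 38.2%, 39.4% and 42.1% starting 1 base later. Where the sequences overlap, that form matches the listed miR-133a-3p without a mismatch and its own listed sequence with 1. Its last base, C, lies past the end of the listed miR-133a-3p, where the leading form of miR-133a-3p has U. Whether it is a separate case of the shift was not tested. MiR-29a-3p, which targets collagen mRNAs, had 8.70%, 7.25% and 5.71% as listed, and 23.1%, 32.1% and 37.4% starting 1 base earlier.

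MiR-10b-5p was the clearest case, with no tag as listed and 52.6%, 49.9% and 53.4% starting 2 bases earlier. That start gives it the seed ACCCUGU, which is the listed seed of miR-10a-5p. Only 1 other of the 12 shared its new seed with another listed miRNA, miR-378b with miR-378a-3p. MiR-145-3p had 0.822%, 0.833% and 0.913% as listed, and 21.9%, 20.3% and 20.9% starting 2 bases later. Both arms of miR-142 were shifted: miR-142-5p had 46.2%, 45.2% and 46.6% starting 2 bases earlier, and miR-142-3p 32.3%, 32.7% and 31.6% starting 1 base later. MiR-504 (25.8%, 30.1% and 34.3%) and miR-203a-3p (24.2%, 20.6% and 24.0%) also led with a form starting 1 base later. In miR-3068-3p the listed form stayed ahead in these hearts, with 23.6%, 20.2% and 20.3%, against 7.77%, 9.83% and 10.1% for the table's most abundant form. It was the only miRNA of the 206 for which that held in all 3 hearts.

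Some most abundant sequences were as near to a relative as to their own listed sequence. Mismatches were counted over the bases that overlap. This held for 7 of 331 miRNAs with a mean of at least 10 counts, and for 2 of them, miR-378b and miR-133b-3p, the relative had fewer mismatches. The sequences of miR-378b, and of miR-206-3p as a tie between relatives, are shown here.
miR-206-3p, listed: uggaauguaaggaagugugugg
miR-206-3p, most abundant: uggaauguaaggaaguAugu
miR-378b, listed: aguggacuuggagucagaagg
miR-378b, most abundant: aCuggacuuggagucagaaggU
miR-378a-3p, listed: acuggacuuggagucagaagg
Capitals again mark bases that are not in the listed sequence of the same name. The leading sequence of miR-206-3p differs by G17A from its own listed sequence and by A11G from miR-1b. It made up 49.5%, 68.1% and 79.6% of the miR-206-3p counts in hearts 1, 2 and 3, in the same order as the short form of miR-1b. The listed miR-206-3p held 0.0445% of its counts in heart 1 and 0 in hearts 2 and 3. The miR-206-3p level is thus a count of a sequence as close to miR-1b, which was at 199002 CPM on average against 533 CPM for miR-206-3p. Whether these tags come from either gene was not tested. For miR-378b, the leading sequence contains the whole of miR-378a-3p and made up 83.1%, 84.8% and 82.5% of counts, with at most 0.0363% as listed in any heart.

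Neighbouring hairpins reached different levels. RefSeq (GRCr8) places 359 hairpins with a member in the table, of which 173 lie within the span of a protein-coding gene and 159 fall into 48 clusters with at most 10 kb between neighbours on a strand. In the 13 clusters with a member at 100 CPM or more and no member at another locus, the highest hairpin exceeded the lowest with a mean of at least 10 counts by a median of 8.15-fold (1.68 to 258). The Mir143 and Mir145 cluster at chr18:57369983-57371453 (minus strand), within the lncRNA Carmn, held 11.9%, 12.1% and 13.5% of all counts. Its miR-143-3p averaged 121178 CPM and its miR-145-5p 2465 CPM, a 49.1-fold gap, and the share was steady over hearts. The Mir1 and Mir133a1 cluster at chr18:2157872-2160413 (minus strand), inside Mib1, held 16.5%, 4.64% and 4.08%. Both leading arms were highest in heart 1, miR-1-3p more so than miR-133a-3p. Mir206 and Mir133b lie together at chr9:30590697-30594665 (plus strand), with miR-133b-3p at 1275 CPM and miR-206-3p at 533 CPM on average. Both levels are uncertain, because their leading sequences are at least as near to miR-133a-3p and to miR-1b.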

How the data were processed

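Per the labels' protocols, Trizol extracts received 3′ and 5′ adaptors, and PCR products of small RNA size were sequenced on an Illumina NextSeq. The submitters' processing notes name Novoalign 2.07.11; its role, the build and the miRBase release were not given in the sources used here. Raw tag counts per library were deposited by the authors, in columns that, per the file headers, hold tags identical to the mature sequence, tags of the row's commonest sequence, or all isoforms. The smallest count above 0 was 2, so rarer tags are missing. Of the per-sample columns in that table, 9 belong to other samples and were not used. Blank cells were read as 0. Of 1257 rows, 492 predicted entries were left out. For 57 mature IDs in several rows the row with the highest all-isoform total was kept. CPM were computed over all-isoform totals of named miRNAs.

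Arms (5p over 3p) and isoforms (listed over other) were tested with edgeR 4.0.16 in R 4.3.3 (robust quasi-likelihood F test), with heart as a block, heart totals as library sizes and no scaling factors. Both classes come from the same library, so the pairing is by construction. P-values were adjusted over all features tested (Benjamini-Hochberg, 0.05); pairs and miRNAs needed a mean of 10 counts, shares a mean of 100. Log2 ratios per heart were taken from counts above 0. DESeq2 1.42.0 and the other settings in the closing section were alternatives. The scripts were checked on simulated data. RefSeq (GRCr8) entries were matched by name for 630 of 699 miRNAs; a partner arm was added to a hairpin by its name stem. The overlap with genes ignores strand. Names in the text follow a fixed rule: the 10 highest levels, the 8 most one-sided pairs in each direction and the 5 closest to even, the 8 highest and 8 lowest listed shares, up to 10 shifted starts, the 8 highest and 5 lowest CVs (100 CPM or more), and the first 3 members of each list and seed family. Members, lists and tests were chosen with earlier results of these data known. Any further miRNA in the text was picked with its values known.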

Additional observations from a re-analysis of the deposited data

Results flagged for a closer look

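The deposited table also lists entries that its authors mark as predicted, which no comparison above uses. They held 1.29%, 1.09% and 1.18% of all counts in normal hearts 1, 2 and 3, which is a signal in data outside the named miRNAs. Counts were listed for 228, 279 and 288 of these entries, and the largest single entry held 20.96%, 24.6% and 25.4% of their counts.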

How the results depend on the processing

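Arm calls stayed within 1.5 times of the 87 and 80 under every alternative run, with 88 and 82 without the replicate block, 86 and 80 with DESeq2, and 84 to 86 and 79 to 81 on leaving out a heart. With tags of the listed sequence only, miR-339 (4.31) and miR-322 (0.75) turned towards 5p on the log2 scale. MiR-322 also did with the most abundant sequence (0.75), and miR-339 did without heart 3 (0.0427), while without heart 1 it passed towards 3p (-0.61); the cause was not tested. MiR-195 and miR-142 no longer passed with fitted factors between arms (0.26 and 0.28). The 22 miRNAs with the listed sequence ahead became 13 without the replicate block, 13 at a mean of 100 counts (with 165 the other way, of fewer tested) and 102 against 161 with fitted factors; leaving out a heart gave 12 to 16, and 236 to 251 the other way. Let-7d-5p, miR-532-5p, miR-218a-5p and let-7a-5p lost their calls without the block and on leaving out either of 2 hearts. The median listed share was 16.9% at a mean of 10 counts and 21.4% at 1000, and the most abundant sequence was another in 204 and 59 miRNAs at these limits. The 5p over 3p difference was 5.75 points at 1000 counts. The share of the 10 most abundant miRNAs was 77.8% with listed sequences, 77.3% with most abundant sequences and 75.5% with predicted entries in the total. With listed sequences only, the miR-1 family held 40.3%, miR-143-3p 3.57%, the miR-30 family 4.34%, miR-99 and miR-100 3.09%, miR-148 and miR-152 0.365%, miR-26 10.6%, let-7 10.5% and miR-27 2.69%. The depth limits shares of miRNAs near 100 counts and any statement on tags seen fewer than 2 times.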
